A study of Mus musculus with 12 samples.

Results

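The TGF-beta and BMP pathway genes were taken as the protein-coding mouse genes of GENCODE M21 whose symbol begins with Smad, Tgfb, Bmp, Gdf, Inhb, Acvr, Ltbp, Grem or Smurf, together with Nog and Inha. The rule found 64 genes among 21864 protein-coding genes with an annotated start site, and 35 of the 64 were the nearest gene to at least 1 BMAL1 peak in at least 1 library. Each peak was given to the gene whose start site lay nearest to its midpoint, so a peak can be assigned to a gene although it lies inside another one. The prefix also brought in 5 genes that are not core pathway components, which are described last.

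BMAL1, a core circadian clock transcription factor that works with CLOCK, was profiled by chromatin immunoprecipitation and sequencing in primary mouse adult fibroblasts, which were derived from ear tissue of female C57BL6/J adults and kept in 3% oxygen. Control cells were not irradiated, and senescent cells had received 20 Gy of X-rays. Both groups were given 100 nM dexamethasone, a synthetic glucocorticoid used to synchronise their rhythms, and were fixed 12 h later in 1% formaldehyde, so a single clock time is represented. Each group had 3 libraries, and the sources do not state whether these came from separate mice or cultures, so spread between them may be technical.

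TGF-beta family ligands are secreted dimers that bind paired type II and type I receptor kinases at the cell surface, and the type I receptor then phosphorylates a receptor-regulated SMAD, which joins SMAD4 and enters the nucleus. TGF-betas and activins signal mainly through SMAD2 and SMAD3, BMPs mainly through SMAD1, SMAD5 and SMAD9, and SMAD6, SMAD7 and the SMURF ubiquitin ligases restrain the cascade. In fibroblasts the pathway is known for matrix synthesis and growth control. BMAL1 with CLOCK recognises the E-box CACGTG, and AP-1 factors recognise TGACTCA and its complement TGAGTCA.

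The 10 sequences given first are examples from regions with an E-box or an AP-1 motif. The E-box regions at Smad2, Ltbp4 and Smad7 are not among these sequences. They are the plus strand of GRCm38 (mm10) from RefSeq, with 25 bases to each side of the outermost motif. Capitals mark CACGTG or the AP-1 heptamer, both of which were searched on both strands within 100 bp of a peak midpoint. The Acvr1b, Smurf1 and Bmper regions were chosen after their values were seen.
Tgfb2 intron, chr1:186627803-186627858: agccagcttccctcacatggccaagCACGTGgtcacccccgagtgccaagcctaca
Smad5 upstream, chr13:56692257-56692312: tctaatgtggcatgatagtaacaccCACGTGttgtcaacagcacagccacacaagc
Smad3 intron, chr9:63743421-63743476: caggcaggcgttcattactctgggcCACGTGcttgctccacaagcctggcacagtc
Smad6 intron, chr9:63991925-63991980: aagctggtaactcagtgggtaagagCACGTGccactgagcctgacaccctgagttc
Tgfbr3 intron, chr5:107284368-107284423: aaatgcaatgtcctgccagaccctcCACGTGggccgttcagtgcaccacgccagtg
Inhba distal, chr13:16761497-16761687: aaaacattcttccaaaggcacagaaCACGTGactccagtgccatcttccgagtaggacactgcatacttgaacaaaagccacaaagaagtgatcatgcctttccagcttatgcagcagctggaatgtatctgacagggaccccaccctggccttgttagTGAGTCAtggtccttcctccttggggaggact
Acvr1b intron, chr15:101190548-101190718: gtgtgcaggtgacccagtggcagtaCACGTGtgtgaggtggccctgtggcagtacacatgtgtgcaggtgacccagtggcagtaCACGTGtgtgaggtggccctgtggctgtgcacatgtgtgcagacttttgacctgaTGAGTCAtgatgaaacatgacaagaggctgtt
Smurf1 intron, distal region, chr5:144898543-144898701: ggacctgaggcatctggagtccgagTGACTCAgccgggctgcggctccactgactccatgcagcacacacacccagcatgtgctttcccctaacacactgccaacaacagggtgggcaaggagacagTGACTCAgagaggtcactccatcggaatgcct
Smurf1 intron, near region, chr5:144929510-144929602: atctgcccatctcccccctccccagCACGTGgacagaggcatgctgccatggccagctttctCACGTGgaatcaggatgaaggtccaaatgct
Bmper upstream, chr9:23191142-23191198: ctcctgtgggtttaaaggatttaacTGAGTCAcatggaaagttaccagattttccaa
The Tgfb2 region was called in all 6 libraries, and its E-box is the only motif within the window. The Smad5 and Acvr1b regions were called in the 3 senescent libraries and in no control library, and the Smad3 and Tgfbr3 regions in senescent 2 and 3 alone. The Smad6 and Inhba regions were called in control 3 and all senescent libraries. Both Smurf1 regions were called in every library except control 2, and the window of the one held 2 AP-1 motifs and that of the other 2 E-boxes. In the Acvr1b window the 2 E-boxes and the AP-1 motif spanned 114 bp from the first to the last motif start, and both E-boxes stand in the same longer repeated stretch. The Bmper region, with an AP-1 motif and no E-box, was called in the 3 control libraries alone.

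The lengths of the peak lists overlapped between the groups. The lists held 2794, 3349 and 10601 peaks in controls 1, 2 and 3 and 4220, 9805 and 5053 peaks in senescent 1, 2 and 3. Sequencing depth is unknown, since the files hold called peaks only, and a missing peak means that none was called. The fibroblast identity of the cells could not be checked, because peak lists give no expression of marker genes.

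The share of TGF-beta and BMP genes with a peak overlapped between the groups and exceeded that of all genes in every library. In controls 1, 2 and 3, 15, 18 and 25 of the 64 genes had a peak, which is 23.4%, 28.1% and 39.1%, against 9.32%, 10.8% and 25.3% of all protein-coding genes. In senescent 1, 2 and 3 the numbers were 20, 30 and 20 genes, which is 31.3%, 46.9% and 31.3%, against 14.4%, 26.5% and 16.6%. The 95% Wilson interval of the lowest share was 14.8 to 35.1% and that of the highest 35.2 to 58.9%; these intervals reflect counting error alone. Averaged over libraries, the share was 30.2% ± 8.02 (SD, n = 3) in controls and 36.5% ± 9.02 (SD, n = 3) in senescent cells, a difference of 6.25 percentage points that is smaller than either SD, and the groups overlapped. The difference was 1.04 points without senescent 2, 2.86 without control 1 and 10.7 without control 3. With each list limited to its 2794 best-scoring peaks, 15, 14 and 14 genes had a peak in the control libraries and 16, 15 and 15 in the senescent libraries, and the shares lay between 21.9 and 25%, against 9.32 to 10.4% of all genes, with a difference of 1.56 points.

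**Figure D1:**
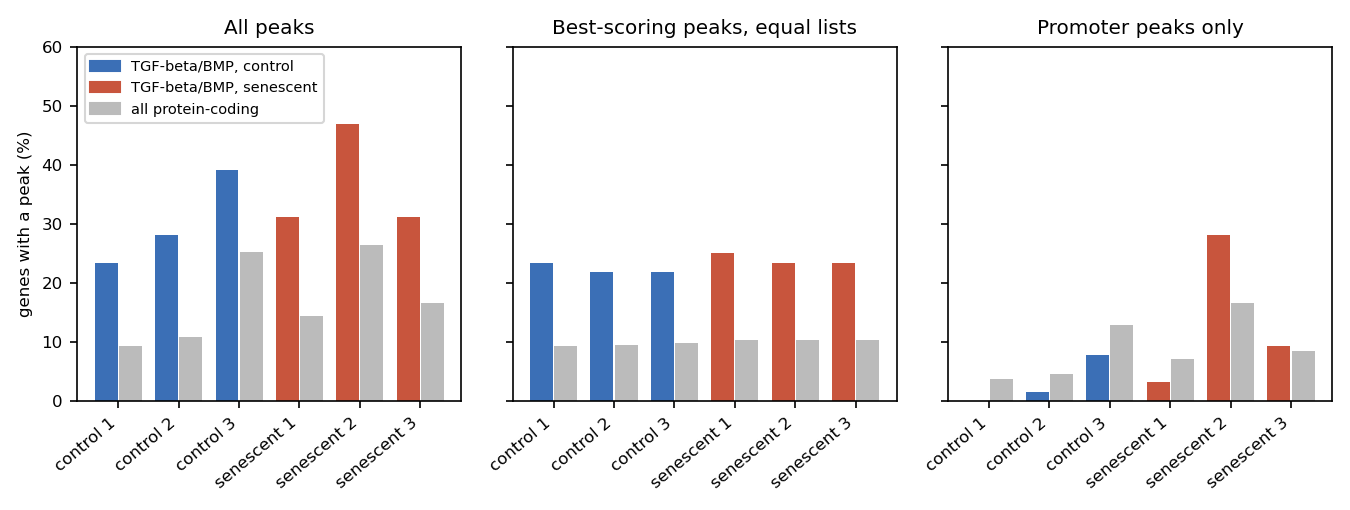
Percentage of genes with at least 1 BMAL1 peak (y axis) in each of the 6 libraries (x axis), for the 64 TGF-beta and BMP genes (blue, control; red, senescent) and for all 21864 protein-coding genes (grey), without error bars. With all peaks and with lists cut to 2794 peaks the coloured bars stand above the grey ones in every library, whereas with promoter peaks only they stand below in the 3 control libraries and in senescent 1.

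The pathway genes sit in wide stretches of sequence, and this has to be set beside their share of genes with a peak. The stretch closer to a gene's start sites than to any other gene's had a median of 104.4 kb for the 64 genes and 47.4 kb for all genes. Within the pathway it was 175.9 kb for the 35 genes with a peak and 49.8 kb for the 29 without. Per megabase of such sequence, the pathway genes held 1.48, 1.36 and 1.17 times the peaks of all genes in controls 1, 2 and 3, and 1.33, 1.77 and 1.56 times in senescent 1, 2 and 3. Thus the ratio was above 1 in all 6 libraries, but smaller than the ratio of the gene shares in each library apart from senescent 2.

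The peaks at these genes lay far from the start sites. Their median distance to the nearest start site was 66.3 to 76.5 kb in the control libraries and 20.4 to 60.4 kb in the senescent libraries, against 2.14 to 10.8 kb for all peaks. A promoter position, within 1 kb of a start site, was held by 0 of 20, 1 of 22 and 6 of 60 peaks in controls 1, 2 and 3. In senescent 1, 2 and 3 it was held by 3 of 27, 22 of 84 and 7 of 38 peaks, so the promoter share was 0 to 10.0% in controls and 11.1 to 26.2% in senescent cells, without overlap. Among all peaks it was 31.6 to 32.9% in controls and 39.9 to 45.0% in senescent cells, also without overlap. The 0 of 20 in control 1 has a 95% Wilson upper limit of 16.1%, below the library's overall share of 31.8%. This limit counts the peaks of 1 library as independent, although the 20 peaks belonged to 15 genes.

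At the level of single genes, 9 of the 64 (14.1%) had a peak in all 6 libraries, against 5.14% of all genes, and 35 (54.7%) had one in any library, against 36.3%. Smad2, Smad5 and Ltbp4 had more peaks in every senescent library than in any control library, which is 3 of 64 genes, or 8.57% of the 35 with a peak. Among all genes this held for 1.86%, and for 5.12% of the genes with a peak. For Ltbp4 the separation holds for numbers of peaks but not of regions, as described below. Bmpr1b and Inhbb had more peaks in every control library than in any senescent library, which is 2 of 64 genes, or 5.71% of the 35, against 0.668% of all genes and 1.84% of those with a peak. These are counts of 3 and 2 genes with wide intervals: the 95% Wilson interval of the former share of 64 was 1.61 to 12.9% and that of the latter 0.861 to 10.7%. The senescent count was 5 without control 2, 7 without control 3, 7 without senescent 1 and 0 with equal list lengths, and the control count was 2 in each of these. The share of all genes was not computed for these settings. With equal list lengths the 2 genes were Bmper and Inhbb in place of Bmpr1b and Inhbb. In an exact two-sided permutation test of peak numbers over the 20 arrangements of the libraries, these 5 genes had p = 0.1, the smallest that 3 against 3 libraries can give, as did 553 of the 7947 genes tested. After Benjamini-Hochberg adjustment over the 7947 genes, no gene passed the threshold, with an adjusted p of 1 for every one, and 0 genes had an unadjusted p under 0.05 because the exact test cannot reach it.

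**Figure D2:**
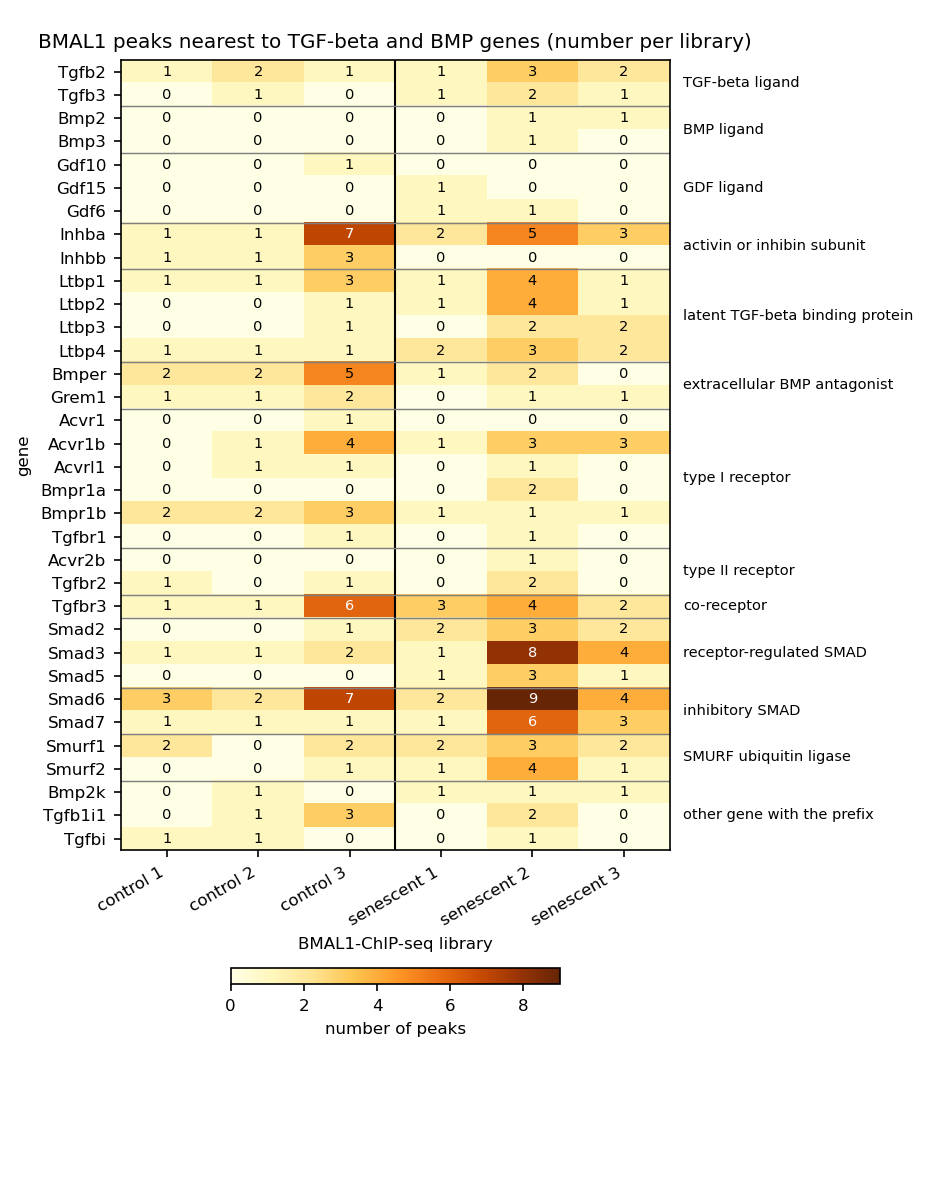
Number of BMAL1 peaks nearest to the TGF-beta and BMP genes with a peak (rows, grouped by role, without a gene not reported here) in the 3 control and 3 senescent libraries (columns), with the colour scale and the printed figure both giving the number of peaks. Smad6 and Smad3 reach 9 and 8 peaks in senescent 2, and Inhbb has peaks in the 3 control libraries only.

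Among the TGF-beta ligands, 2 of 3 had a peak and Tgfb1 had none. Tgfb2, which acts early in development and in matrix regulation, had 1, 2 and 1 peaks in controls 1, 2 and 3 and 1, 3 and 2 in senescent 1, 2 and 3, so the groups overlapped (exact permutation p = 0.7, n = 3 per group). Its region shown above lay in its own intron, 77.8 kb downstream of the start site, and ranked 430.5, 3223.5 and 1191 by score in the control libraries and 354, 373.5 and 1595.5 in the senescent libraries, where rank 1 is the best score of a list and the lists differ in length. The ligand Tgfb3 was not separated between the groups, with 1 peak in control 2 and 1, 2 and 1 in the senescent libraries.

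Of the 10 BMP ligands only Bmp2 and Bmp3 had any peak, and Bmp4, Bmp5, Bmp6, Bmp7, Bmp8a, Bmp8b, Bmp10 and Bmp15 had none. Bmp2, an inducer of bone formation, had no peak in the control libraries and 0, 1 and 1 in senescent 1, 2 and 3. Its single region lay 159.6 kb upstream in intergenic sequence. Of the 10 GDF ligands Gdf6, Gdf10 and Gdf15 had a peak, and Gdf6, which takes part in joint formation, had no control peak and 1, 1 and 0 senescent peaks, in a region 513.4 kb downstream with an AP-1 motif. With Smad5, these made 3 of 64 genes with a peak in at least 2 senescent and no control library, against 3.42% of all genes, which is 4.69% and close to that background. Inhbb alone had the opposite pattern, which is 1.56% against 1.64% of all genes.

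Activin subunits gave contrasting patterns. Inhbb, which encodes the beta B subunit of activin and inhibin, had 1, 1 and 3 peaks in the control libraries and none in the senescent libraries. Its region called in all 3 controls, chr1:119457967-119458430, was intergenic, 35.9 kb upstream of the start site, and ranked 1979, 1384 and 960. Inhba, which encodes the beta A subunit, had 1, 1 and 7 control peaks and 2, 5 and 3 senescent peaks, with overlap between the groups (exact permutation p = 1, n = 3 per group). The Inhba peaks were spread over a stretch of 1117 kb closest to that gene. A region in its intron, 2.21 kb from the start site, was called in all 3 senescent libraries and in no control, whereas the region printed above, 747.1 kb away, was called in control 3 as well. Inha, Inhbc and Inhbe had no peak.

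All 4 latent TGF-beta binding proteins, which hold TGF-beta in the extracellular matrix, had a peak. Ltbp4 had 1 peak in each control library and 2, 3 and 2 in the senescent libraries, and the groups did not overlap. The region common to all 6 libraries, chr7:27332241-27332981, lay in its intron 1.2 kb from the start site and ranked 2378.5, 1008.5 and 398.5 in controls and 636, 542 and 593 in senescent cells. A further Ltbp4 region 4.78 kb from the start, in a coding exon and with an E-box, was called in senescent 1 and 2 alone. Both peaks of senescent 3 therefore lay in the common region. Counted by regions, senescent 3 and every control library had 1, so the groups overlapped. With equal list lengths Ltbp4 had 1, 1 and 1 against 1, 3 and 2 peaks, and the groups then overlapped. Ltbp1 had 1, 1 and 3 control peaks and 1, 4 and 1 senescent peaks. An intronic region 77.2 kb downstream of the nearest of its start sites was called in every library, but near the end of several lists. As a percentage of list length its ranks were 59.56, 47.54 and 99.8 in controls and 72.77, 99.03 and 96.75 in senescent cells. With equal list lengths Ltbp1 had 1, 1 and 0 control peaks and 0, 0 and 0 senescent peaks.

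Among the extracellular BMP antagonists Bmper and Grem1 had peaks in both groups, and Nog had none. For Bmper, which binds BMPs outside the cell, 2, 2 and 5 control peaks stood beside 1, 2 and 0 senescent peaks, and the groups overlapped at 2. With equal list lengths the numbers were 2, 1 and 2 against 0, 0 and 0. Grem1, which encodes gremlin, had a region called in all 3 control libraries and no senescent library that lay in an intron of the neighbouring gene Fmn1, 68.8 kb from the Grem1 start.

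Of the 7 type I receptors, 6 had a peak, and Acvr1c had none. Bmpr1b, a type I BMP receptor, had 2, 2 and 3 control peaks and 1 peak in each senescent library, without overlap. The control and senescent peaks lay in different places. The region chr3:142063423-142063901, in an intron of Bmpr1b and 81.4 kb upstream of the nearest of its start sites, was called in the 3 control libraries at ranks 1409.5, 3261 and 3347 and in no senescent library. The region chr3:141819727-141820113, in an intron of the adjacent gene Unc5c and 111.6 kb downstream, was called in the 3 senescent libraries at ranks 3987, 1017.5 and 1631 and in no control library. Other control peaks lay in introns of Unc5c too. A region there, 219.8 kb downstream, was called in controls 1 and 2 at ranks 486 and 2958, and control 3 had further peaks in that gene. With equal list lengths Bmpr1b had 2, 0 and 0 control peaks and 0, 1 and 1 senescent peaks, a mean difference of 0. When peaks were assigned to the 5′ end of the gene record only, the mean difference was also 0.

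Acvr1b, the activin type I receptor also called ALK4, had 0, 1 and 4 control peaks and 1, 3 and 3 senescent peaks, and the groups overlapped. Its intronic region printed above, 16.6 kb from the start, ranked 1468.5, 1466 and 1239 in the senescent libraries. Of the 4 type II receptors, Acvr2b and Tgfbr2 had a peak and Acvr2a and Bmpr2 had none, and Acvr2a had the widest stretch of closest sequence in the pathway at 1916 kb. The co-receptor Tgfbr3, or betaglycan, had 1, 1 and 6 control peaks and 3, 4 and 2 senescent peaks, and its intronic region 88.9 kb from the start was called in all 6 libraries.

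Of the 5 receptor-regulated SMADs, Smad2, Smad3 and Smad5 had a peak, and Smad1 and Smad9 had none. Smad2, which transmits TGF-beta and activin signals, had 0, 0 and 1 peaks in the control libraries and 2, 3 and 2 in the senescent libraries. These peaks lay at its promoter: a region with an E-box 274 bp upstream was called in control 3 and all 3 senescent libraries, and a region with an E-box 605 bp downstream was called in the 3 senescent libraries alone. Smad2 was also the 1 gene of the 64 whose promoter peaks alone did not overlap between the groups. The share of all genes for which this held was not computed. In lists of equal length it had 0, 0 and 1 against 2, 1 and 1 peaks, which overlapped.

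Smad5, which transmits BMP signals, had no control peak and 1, 3 and 1 senescent peaks. The region printed above, 10.6 kb upstream in intergenic sequence, was called in all 3 senescent libraries at ranks 2055.5, 3541 and 3208. With lists of 2794 peaks each, Smad5 kept 1 peak in senescent 1 and none in the other libraries, since its ranks in senescent 2 and 3 were beyond 2794.

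Smad3, the partner of Smad2 in TGF-beta signalling, had 1, 1 and 2 control peaks and 1, 8 and 4 senescent peaks. The means were 1.33 ± 0.577 and 4.33 ± 3.51 (SD, n = 3 per group), the groups overlapped, and the exact permutation p was 0.4. The peak present in all 6 libraries was intergenic, 60.4 kb upstream at chr9:63818133-63818647, and none of the motifs searched was in its window. It ranked 140, 460 and 343.5 in the control libraries and 899.5, 1111 and 687 in the senescent libraries. As a percentage of the length of each list these ranks were 5.01, 13.7 and 3.24 in controls and 21.3, 11.3 and 13.6 in senescent cells, so the groups overlapped. The additional senescent peaks lay inside the gene, from 14 to 59.2 kb downstream of the start, and came from senescent 2 and 3 only, apart from 1 at the start site that was also called in control 3. From lists of equal length Smad3 had 1, 1 and 1 control and 1, 2 and 1 senescent peaks.

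The common SMAD, Smad4, had no peak, and both inhibitory SMADs had a peak in all 6 libraries. Smad6, the neighbour of Smad3, had 3, 2 and 7 control peaks and 2, 9 and 4 senescent peaks, with overlap. Its region 125.4 kb downstream was called in every library, its region 79.8 kb downstream in the 3 control libraries alone, and its intronic E-box region 30.1 kb downstream in control 3 and all senescent libraries. The control region, chr9:63942154-63942784, lies next to a peak of senescent 2 at chr9:63941899-63942072. The 2 do not overlap and so count as separate regions.

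**Figure D3:**
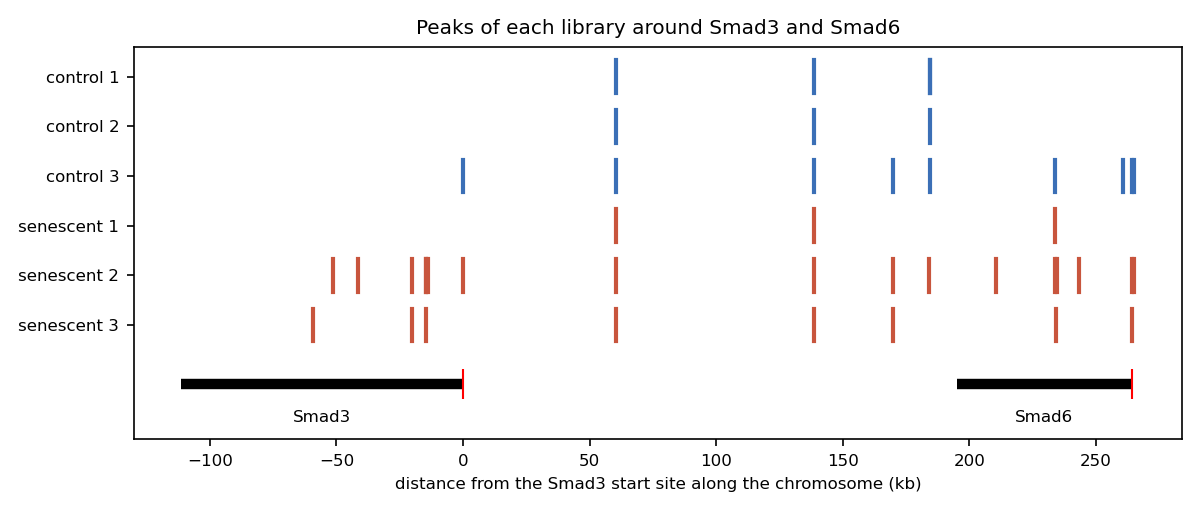
Positions of the peaks assigned to Smad3 and Smad6 (vertical marks, blue for control and red for senescent) in each library (y axis), against distance from the Smad3 start site along the chromosome in kb (x axis), with gene bodies in black and start sites in red. Marks at about 60 and 139 kb appear in all 6 rows, and marks within the Smad3 body are found in senescent 2 and senescent 3 only, apart from the start site.

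Smad7, which blocks type I receptors, carried the best-ranked region of the pathway. It had 1 peak in each control library and 1, 6 and 3 in the senescent libraries, with overlap at 1. The shared region lay 158.8 kb downstream, in an intron of Ctif, at chr18:75528412-75529277, and ranked 66.5, 55 and 126 in controls and 35, 66.5 and 45 in senescent cells. As a percentage of list length the ranks were 2.38, 1.64 and 1.19 in controls and 0.829, 0.678 and 0.891 in senescent cells, so the raw ranks overlapped between the groups and the scaled ranks did not. The numbers were 1, 1 and 1 against 1, 2 and 1 with equal list lengths.

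The ubiquitin ligases Smurf1 and Smurf2 both had peaks. Smurf1 had 2, 0 and 2 control peaks and 2, 3 and 2 senescent peaks, and its region with AP-1 motifs ranked 479 and 652.5 in controls 1 and 3 and 409, 489.5 and 671.5 in the senescent libraries. Smurf2 had 0, 0 and 1 against 1, 4 and 1 peaks. Of the 5 genes with the prefix that are not core pathway components, Bmp2k, Tgfb1i1 and Tgfbi had a peak and Bmp1 and Tgfbrap1 had none. Bmp2k, a kinase gene, had a promoter region with an E-box in control 2 and all 3 senescent libraries.

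The peaks of the 6 libraries merged into 16818 regions, of which 117 belonged to the 35 genes. Of the 117, 7 were called in all 6 libraries, which is 5.98% against 6.58% of all regions. Senescent-only regions, called in at least 2 senescent and no control libraries, numbered 16 (13.7%, against 9.44% of all regions), and control-only regions numbered 8 (6.84%, against 5.86%). Of these, 5 of 117 (4.27%) were called in all 3 senescent and no control libraries, against 3.73% of all regions, and 5 (4.27%) in all 3 control and no senescent libraries, against 1.58%. With equal list lengths the senescent-only regions numbered 8 and the control-only regions 7, and the share of all regions was not computed at this setting. Of the 117 regions, 54 were intergenic, 59 intronic, 3 in a UTR and 1 in a coding exon, and 53 lay beyond 50 kb from the start site. By the midpoint of the best peak, none of the 7 regions called in all libraries was at a promoter, whereas 44.4% of such regions over all genes were. The 7 are few, and the Ltbp4 region, at 1.196 kb, lay just past the limit of 1 kb.

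**Figure D4:**
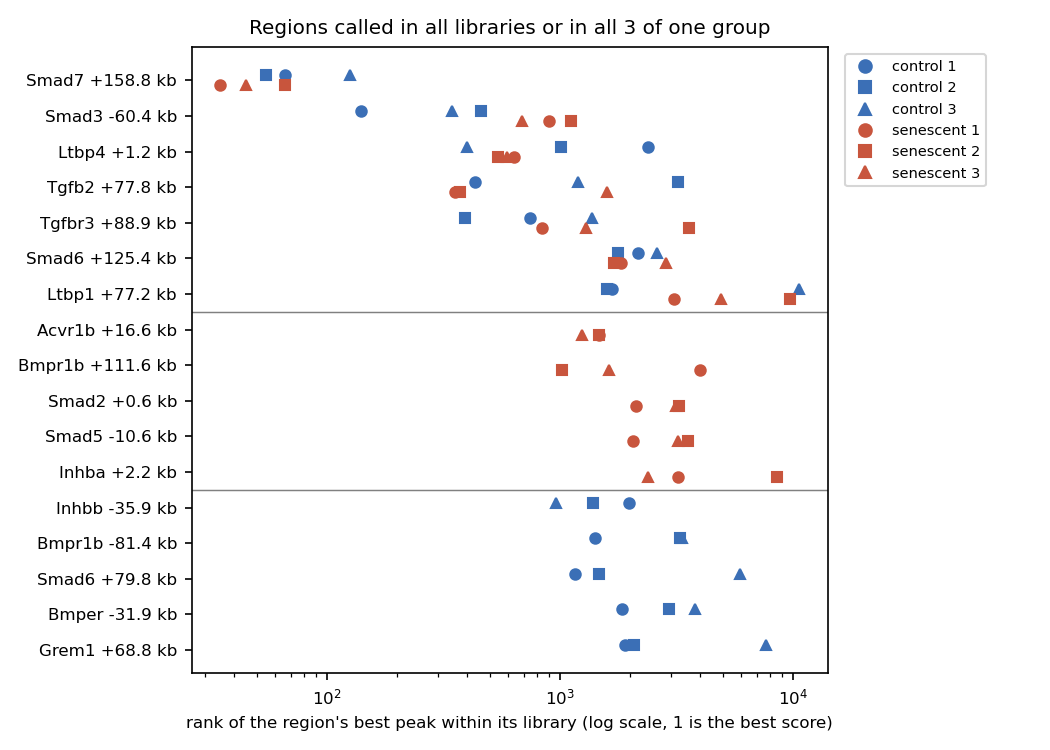
Rank of the best peak of each region within its library (x axis, log scale, 1 is the best score) for the 7 regions called in all 6 libraries, the 5 called in the 3 senescent libraries only and the 5 called in the 3 control libraries only (y axis, gene and distance to its start site). The Smad7 region sits between rank 35 and 126 in every library, while none of the 10 regions limited to 1 group ranks better than 960.

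E-boxes were found in a larger share of the pathway's peaks in senescent than in control libraries. The share was 20.0%, 9.09% and 13.3% in controls 1, 2 and 3 and 48.1%, 25% and 39.5% in senescent 1, 2 and 3, so the groups did not overlap. The means were 14.1% ± 5.50 and 37.5% ± 11.7 (SD, n = 3 per group). Among all peaks of the same libraries the share was 30.8%, 23.9% and 13.6% in controls and 39.98%, 23.2% and 33.3% in senescent cells, and these overlapped. The control shares rest on 4 of 20, 2 of 22 and 8 of 60 peaks, with Wilson intervals from 2.53 to 41.6% over the 3 libraries. The difference of the means was 23.4 percentage points, and 28.2 with equal list lengths. The promoter share of these peaks differed between the groups in the same direction, and its part in the E-box share was not tested. At 2 kb from the midpoints the E-box share of the pathway's windows was 1.79 to 5.56%.

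By region, an E-box lay within 100 bp of the best peak's midpoint in 19 of 117 (16.2%), against 16.7% of all regions. This window held an E-box in 8 of the 16 senescent-only regions (50%, against 37.8% of all senescent-only regions), namely at Acvr1b, Bmper, Ltbp4, Smad2, Smad3, Smad5, Tgfb2 and Tgfbr3. At Tgfb2 this motif ran past the edge of the region, and 16 regions are few for a comparison of shares. No E-box was in the windows of the 8 control-only regions, but only 8.01% of all control-only regions had one there, so 8 regions are too few to show a difference. Among the 7 regions in all libraries 2, at Smad7 and Tgfb2, had an E-box in the window, against 44.6% of such regions over all genes. The Ltbp4 and Tgfbr3 regions called in all libraries held an E-box outside the window.

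AP-1 motifs were less clearly divided. They were within 100 bp of the midpoint in 20.0%, 13.6% and 16.7% of the pathway's control peaks and 33.3%, 21.4% and 15.8% of its senescent peaks, with overlap between the groups. The difference of the means was 6.75 percentage points, 1.84 without senescent 1 and 10.6 without senescent 3. Among all peaks the share was 12.7 to 13.1% in controls and 16.4 to 17.1% in senescent cells. By region 21 of 117 (17.9%) held one in the window, against 16.5% of all regions. The palindromic SMAD binding element GTCTAGAC was in 2 of 117 windows, 1 at Smad6 and 1 at Smad7, both within 1 kb of the start site, against 38 of 16818 windows over all regions. The E-box variant CACGTT was in 7 of 117, or 5.98%, against 6.005% of all regions.

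**Figure D5:**
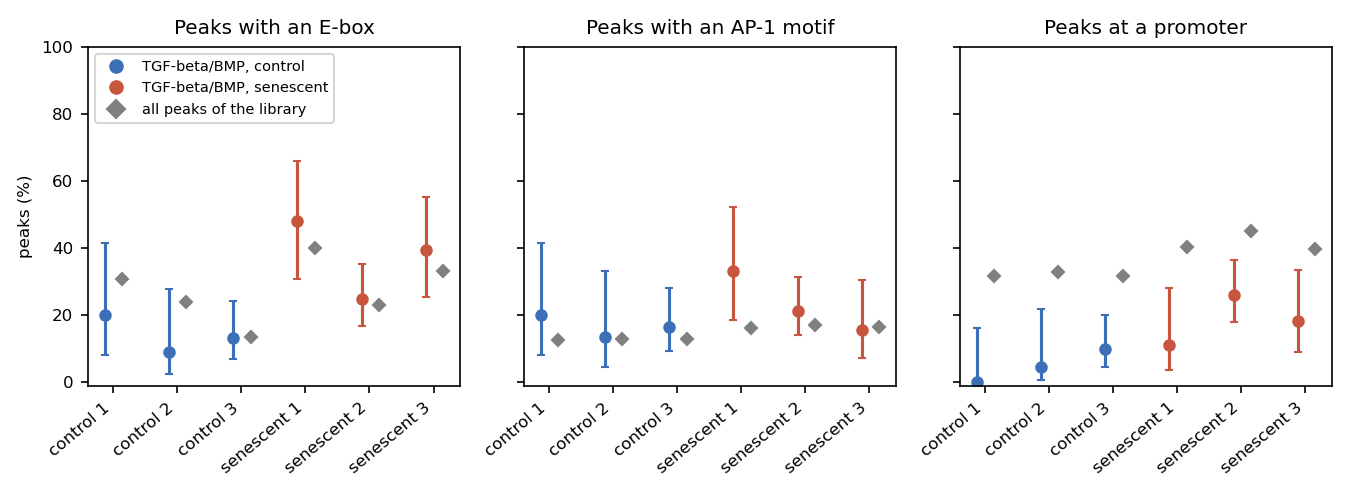
Percentage of peaks (y axis) with an E-box, with an AP-1 motif and at a promoter in each library (x axis), for the peaks of the TGF-beta and BMP genes (circles with 95% Wilson intervals, blue for control and red for senescent) and for all peaks of the library (grey diamonds). The 3 senescent circles lie above the 3 control circles for the E-box and the promoter, and the promoter circles lie below the diamonds in all 6 libraries.

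A list of 74 further pathway genes, including latent TGF-beta activators, other antagonists, SMAD regulators and SMAD target genes, was examined by the same rule. Of these, 46 (62.2%) had a peak in any library and 18 (24.3%) in all 6, against 36.3% and 5.14% of all genes. More peaks in every senescent library than in any control library were found for 2 genes of the 74 (2.70%), against 1.86% of all genes. Hes1, a transcriptional repressor gene, was 1 of them, with 2, 2 and 2 control peaks and 3, 4 and 3 senescent peaks. Its exact permutation p was 0.1, with an adjusted p of 1. None of the 74 genes had more peaks in every control library than in any senescent library, against 0.668% of all genes. Map3k7, which encodes the kinase TAK1, had 0, 0 and 0 against 0, 1 and 1 peaks, the 1 gene of the 74 (1.35%) with a peak in at least 2 senescent and no control libraries, against 3.42% of all genes. Dcn, for the TGF-beta-binding proteoglycan decorin, had 0, 1 and 5 against 0, 0 and 0, and Itgav, for an integrin subunit that activates latent TGF-beta, had 0, 1 and 3 against 0, 0 and 0. These were the 2 genes of the 74 (2.70%) with the opposite pattern, against 1.64% of all genes.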

How the data were processed

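BMAL1-ChIP-seq peak lists of 3 control and 3 senescent libraries were analysed. The 6 input libraries carry no peak list and were not analysed here. Per the study's methods, the authors tagmented chromatin, mapped read pairs to mm10 with BWA, removed duplicates with Picard and called peaks in each library with MACS2 at a false discovery rate of 1%. The MACS2 version and whether inputs served as controls are not given in the sources used here. The deposited score column was read as −log10 of the q-value, from its range and from the lowest score of each list, and it served only to rank peaks within a list.

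Peaks were assigned by midpoint to the nearest start of a protein-coding transcript in GENCODE M21 (basic set). Peaks overlapping by at least 1 bp were merged into regions, and a region's position, assignment and motif window come from its best peak. Motifs were searched within 100 bp of the midpoint in the RefSeq GRCm38 sequence. Peak numbers were compared by an exact two-sided permutation test over the libraries, with Benjamini-Hochberg adjustment over all genes with a peak. The study's own comparison of read counts (DiffBind) could not be repeated from peak lists. Where GENCODE gives several genes the same start sites (18 genes), their peaks cannot be told apart. Assignment and test were tested on simulated peak lists. Alternatives covered peak threshold, list length, assignment rule, motif window, overlap and libraries left out. Genes named with values had non-overlapping peak numbers, a peak in all 6 libraries, or a peak limited to one group in 2 or 3 of its libraries, or were named by the study (Smad3, Bmpr1b); others were named for their roles after their values were seen. The members and lists were chosen with earlier results of these data known. Python 3.11.15, numpy 2.4.6, pandas 2.3.3 and scipy 1.17.1 were used. Some genes are not reported here by name.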

Additional observations from a re-analysis of the deposited data

How the results depend on the processing

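The 3 genes with more peaks in every senescent library (Smad2, Smad5, Ltbp4) became 0 with peaks above the median score, 0 with equal list length, 1 (Smad2) with promoter peaks only, and 7 without the longest list of each group, which was chosen after seeing the data. Leaving out 1 library gave 3 to 7 genes: 5 without control 2, 7 without control 3 and 7 without senescent 1. The 2 genes with more peaks in every control library became 0 above the median score, 0 at promoters, 1 (Inhbb) with the 5′ end of the gene record and 4 without the longest lists. Leaving out 1 library gave 2 to 3. The 9 genes with a peak in all 6 libraries became 5 above the median score, 1 within 50 kb of the start and 0 at promoters. These gene counts at other settings were made for the pathway genes only, so no share of all genes stands beside them. The E-box difference of 23.4 percentage points became 35 within 50 kb, and the AP-1 difference of 6.75 turned to -0.773 there. At promoters neither motif difference could be computed, since control 1 had no promoter peak. The 16 senescent-only regions became 8 with equal list length. In all other settings run, these results kept their direction, and counts stayed within 1.5 times, but the 2 control genes were Bmper and Inhbb with equal list length and within 50 kb. The difference in genes with a peak, 6.25 percentage points, ranged from 1.04 to 10.7 with 1 library left out and was 1.56 with equal list length. The AP-1 difference ranged from 1.84 to 10.6 with 1 library left out. The difference in peak number fell to 0 for Bmpr1b above the median score, with equal list length, within 50 kb, at promoters and with the 5′ end of the gene record, and for Smad3 and Inhbb at promoters. The cause of these shifts was not tested, apart from fewer peaks entering. Peaks per megabase differed by 1.19 (senescent minus control), in the same direction as the gene share.

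Same-numbered libraries correlated at 0.2235, -0.2002 and -0.1471 in their deviations from the group means. Pairs with different numbers gave -0.26 to 0.2727. With 3 libraries a group, these values cannot tell whether same-numbered libraries share an origin. With the replicate block, 4 genes (Ltbp4, Smad2, Smad5, Tgfb3) had more peaks in the senescent library of every pair and 2 (Bmpr1b, Inhbb) in the control library. The share of all genes with these patterns was not computed.

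Peak lists record presence at a threshold and not signal, so list length limits every count. With 3 libraries a group, an exact p cannot fall below 0.1.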
